A study of Mus musculus with 4 samples.

Results

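Matricellular and wound matrix proteins were followed by their genes through single-cell RNA sequencing of mouse tail intervertebral discs, the pads of annulus fibrosus and nucleus pulposus between vertebrae. The genes were picked by symbol, and 10 of 10 were found among the 32285 genes of the count tables: Tnc, Tnn, Postn, Cthrc1, Fn1, Thbs1, Thbs2, Thbs4, Spp1 and Sparc. The mice were wild-type C57BL/6 females aged 12 weeks. Injured discs, at tail levels CC5/6 to CC9/10, were pierced on both sides with a 30G needle and taken 7 days later, and control discs came unpunctured from levels CC12/13 to CC16/17 of the same animals. Each group was sequenced in 2 rounds, giving 4 libraries, and each suspension pooled 30 discs of 6 mice, although the labels do not say whether those numbers hold per round. Suspensions were snap frozen, thawed, sorted for viable cells and captured with 10x Genomics version 3 chemistry. Tail level and injury cannot be told apart in this design. Since every library is a pool, p-values refer to these libraries and not to the spread between mice.

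Matricellular proteins are secreted into the extracellular matrix but mainly change how cells behave there instead of bearing load. Tenascins and periostin appear in healing tendon, skin and bone, fibronectin forms the provisional matrix of a wound, and thrombospondins bind growth factors, collagens and cell receptors. Cells sense these proteins through integrins, CD44, CD36, CD47 and syndecans, and transforming growth factor beta (TGF-beta) induces many of them.

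RefSeq start-site windows (build GRCm38.p6) were found for 7 of the 10 genes, as 10 windows of 250 bases before a start site. The 4 below are shown because, in the injured library of round 2, the UMIs of these genes lay mostly in outer annulus-like cells. That class is described further on. Cthrc1 also lay mostly there but had no window. Tnc and Postn each had another window that is not printed, and the one of Postn held no match. The letters searched, on both strands, were TATAAA for the basal promoter element, TGANTCA for AP-1 factors, ACCACA for RUNX factors, CATTCC for TEAD factors and the CArG box bound by serum response factor. Capitals mark the matches, and positions count back from the start site. In Tnc, at chr4:64047016-64047265 on the minus strand, TATAAA begins at -126. In Postn, at chr3:54360857-54361106 on the plus strand, TATAAA begins at -26. In Tnn, at chr1:160153576-160153825 on the minus strand, CATTCC lies on the other strand, written GGAATG, at -160. In Thbs4, at chr13:92794819-92795068 on the minus strand, 2 overlapping CATTCC matches begin at -197 and -192.
Tnc: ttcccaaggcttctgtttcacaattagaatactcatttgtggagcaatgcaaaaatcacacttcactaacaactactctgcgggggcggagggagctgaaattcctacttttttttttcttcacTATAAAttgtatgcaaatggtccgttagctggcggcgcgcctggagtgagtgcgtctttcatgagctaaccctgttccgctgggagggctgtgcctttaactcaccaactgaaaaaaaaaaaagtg
Postn: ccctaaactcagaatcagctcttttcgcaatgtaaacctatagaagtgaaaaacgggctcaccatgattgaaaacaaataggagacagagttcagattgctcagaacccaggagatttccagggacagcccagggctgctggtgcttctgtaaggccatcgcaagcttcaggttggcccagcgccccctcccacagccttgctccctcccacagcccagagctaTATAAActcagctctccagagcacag
Tnn: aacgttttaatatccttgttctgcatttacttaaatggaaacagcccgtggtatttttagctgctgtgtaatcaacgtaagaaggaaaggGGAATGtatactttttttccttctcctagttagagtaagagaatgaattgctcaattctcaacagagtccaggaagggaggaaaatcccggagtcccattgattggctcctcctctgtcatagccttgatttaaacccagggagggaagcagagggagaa
Thbs4: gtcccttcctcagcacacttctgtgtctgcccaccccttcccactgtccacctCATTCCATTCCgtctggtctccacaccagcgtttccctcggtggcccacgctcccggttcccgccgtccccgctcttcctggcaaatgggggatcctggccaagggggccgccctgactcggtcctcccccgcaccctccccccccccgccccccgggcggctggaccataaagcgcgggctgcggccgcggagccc
Of the 10 windows, 5 held TATAAA, 2 held CATTCC, 1 held ACCACA and none held TGANTCA or the CArG box. The TATAAA windows were 2 of Tnc and 1 each of Postn, Spp1 and Thbs2, and the ACCACA lay in the same Spp1 window. The 2 Tnc windows overlap and hold the same TATAAA, so the 5 windows hold 4 separate sites. Among all 32851 windows of the same length, 12.4% held TATAAA, 12.6% CATTCC, 14.0% ACCACA, 6.75% TGANTCA and 1.47% a CArG box. A match describes the letters only.

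The libraries differed in ways that bear on every value given here. A barcode counted as a cell from 250 genes upward, which gave 378 control and 778 injured cells in round 1 and 856 and 1834 in round 2. Total UMIs (distinct transcript molecules) were 1114210, 8943537, 9891258 and 16972879 in that order. The round 1 control table listed only 444 barcodes. Of the 378 control cells of round 1, 159 carried a barcode that also held comparable or far more UMIs in the injured library of that round: 55 had similar totals in both, and 104 had 29.2 to 44.8 times as many UMIs in the injured library. Levels of control round 1 without those barcodes are given for matrix cells and the classes compared below. Control round 2 stood apart in quality, with 10.4% mitochondrial UMIs against 3.15% to 4.26% in the others, and 21.8% of its UMIs in cells. Cells of both controls were also shallower than those of both injured libraries. By the median, a control cell held 1061.5 UMIs and 606.5 genes in round 1, and 836 and 359 in round 2. Injured cells held 7033.5 UMIs and 2339.5 genes in round 1, and 4635 and 1744.5 in round 2. Leaving out the shared barcodes raised the median of control round 1 to 3628 UMIs, still below both injured libraries. Values below are CPM, the UMIs of a gene scaled to a common total of the group of cells in 1 library, and intervals are exact 95% limits that cover counting error only. In such sums, fewer cells of a type and less RNA per cell cannot be told apart.

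Matrix cells were those in clusters whose markers were of nucleus pulposus, inner annulus or outer annulus, with the clusters formed without the 10 genes. They numbered 275 and 542 in round 1 (control and injured) and 383 and 1541 in round 2. In these sums, Fn1 and Sparc stood higher and Thbs1 and Spp1 lower in both injured libraries than in both controls, and Tnc and Cthrc1 were also higher in both. Tnc, Tnn, Postn and Cthrc1 reached 60.1 to 302 CPM in the injured library of round 2 and stayed at 13.6 CPM or less in the other 3 libraries. Of the 9 genes tested, 6 therefore did not overlap between groups, a pattern found in 37.1% of the 11214 genes tested (16.6% above and 20.4% below). The main edgeR quasi-likelihood fit, with injury as the only term, called none of the 9 tested genes at an adjusted p under 0.05, when 0.0178% of all genes were called. At an unadjusted p under 0.05 the same fit had 6 of the 9, against 7.53% of all genes, and DESeq2 called 1, Fn1, against 1.1% of all genes. Because control and injured discs came from the same animals, a fit with the round as a block was run too. It called 4 of the 9 (Tnc, Cthrc1 and Fn1 higher, Thbs1 lower), when 5.54% of all genes were called (2.73% higher and 2.81% lower). Tnc and Cthrc1 passed the filter on low counts only with the injured libraries counted, where they were high. Their calls are thus no separate support for a rise.

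**Figure D1:**
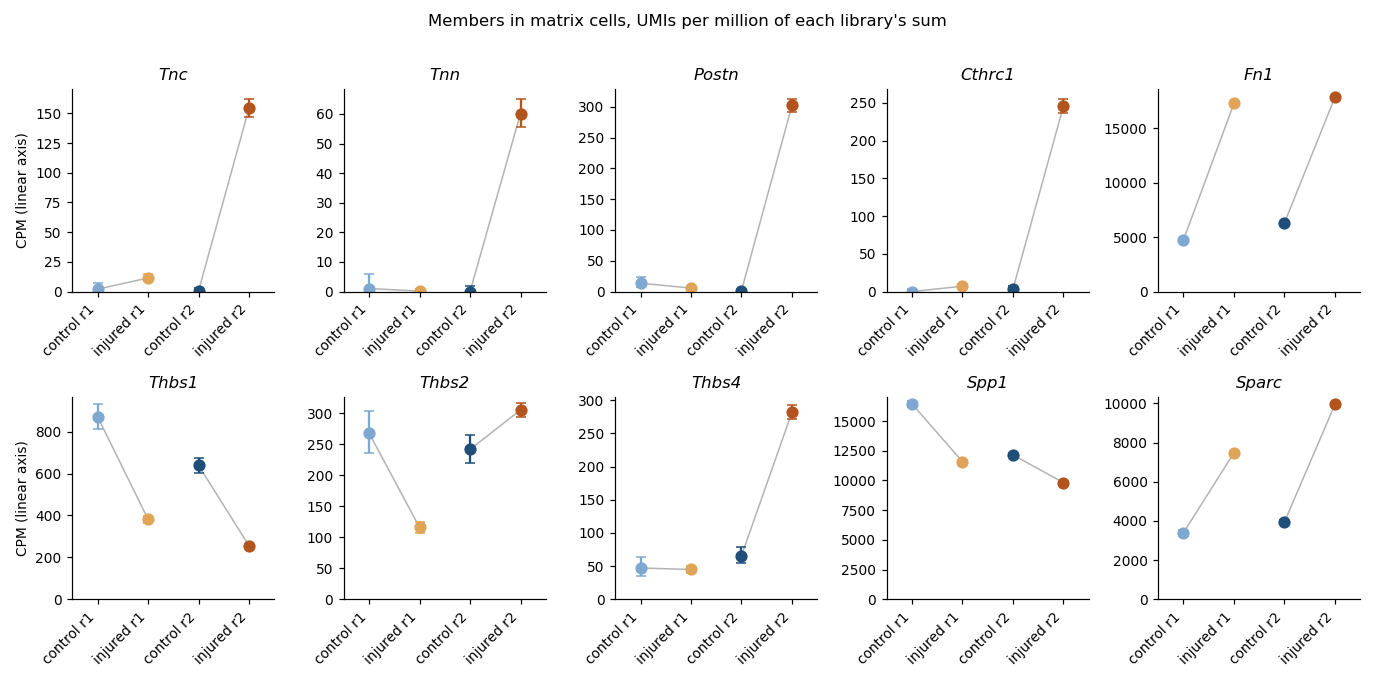
Level of each gene in matrix cells, in CPM (linear axis from 0, scaled per gene), with exact 95% counting limits and lines joining the 2 libraries of a round (r1, r2). Tnc, Tnn, Postn and Cthrc1 stand out in injured round 2 alone, whereas Fn1 and Sparc are higher and Thbs1 lower in the injured library of both rounds.

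Fn1 encodes fibronectin, the scaffold that cells lay down first in a wound (chromosome 1, 71585520 to 71653200, minus strand, GRCm38). Its level in matrix cells was 4751 CPM in the control and 17288 in the injured library of round 1, and 6300 and 17865 CPM in round 2. Both injured libraries were far above both controls. The ratio of injured to control was 3.64 (3.53 to 3.75) in round 1 and 2.84 (2.78 to 2.89) in round 2. The log2 fold change was 1.74 ± 0.37 (SE, n = 2 libraries per group) with an edgeR adjusted p of 0.33, and 1.75 ± 0.45 with an edgeR adjusted p of 0.037 with the round as a block. Without the shared barcodes the round 1 control stood at 3659 CPM, and the blocked edgeR adjusted p was 0.067. Without injured round 2 the main edgeR fit called Fn1, with a log2 fold change of 1.70 and an adjusted p of 0.0039.

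Sparc encodes osteonectin, a collagen-binding glycoprotein of bone and connective tissue (chromosome 11, 55394500 to 55423183, minus strand). Matrix cells held 3402 and 7473 CPM in round 1 and 3946 and 9943 CPM in round 2, control first. The groups did not overlap, with ratios of 2.20 (2.12 to 2.28) and 2.52 (2.46 to 2.58), and the round 1 control stood at 2890 CPM without the shared barcodes. The log2 fold change of 1.32 ± 0.37 (SE, n = 2 per group) did not pass the test in either edgeR fit (adjusted p 0.50, and 0.078 with the round as a block). Summed over all cells, the main edgeR fit called none of the 9 tested genes, when 0.0834% of genes were called. There, 6 of the 9 had an unadjusted p under 0.05, against 7.89% of all genes, and DESeq2 called Fn1 and Tnc, against 1.5% of all genes. The blocked edgeR fit of all cells did call Sparc, at an adjusted p of 0.047, together with Tnc, Cthrc1, Fn1 and Thbs1, when 6.7% of genes were called (3.04% higher and 3.66% lower). In that fit too, Tnc and Cthrc1 passed the filter on low counts only with the injured libraries counted. Without the shared barcodes, that fit called 3 of the 5, Tnc, Cthrc1 and Thbs1. Sums over all cells also differed in other cell types: pancreas acinar markers, 8 of 8 detected, summed to 1967 and 1329 CPM in the controls and 28.7 and 3.60 CPM in the injured libraries. B or plasma cell markers, also 8 of 8, summed to 1103 and 644 against 98.9 and 3.03 CPM. Their part in these calls was not tested.

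Tnc encodes tenascin C, which is sparse in resting adult tissue and abundant around healing wounds (chromosome 4, 63959785 to 64047015, minus strand). Matrix cells held 2 UMIs of it in the control and 70 in the injured library of round 1, and 1 and 1544 in round 2, which is 2.10, 11.5, 0.552 and 154 CPM. Both injured libraries exceeded both controls, but the injured library of round 2 stood far above the other. The ratio was 5.47 (1.46 to 46.1) in round 1 and 280 (50.1 to 11051) in round 2. The log2 fold change was 6.28 ± 1.59 (SE, n = 2 per group) with an edgeR adjusted p of 0.41. With the round as a block it was 6.50 ± 0.72, with an edgeR adjusted p of 0.00011. On the log2 scale the ratios of the 2 rounds lay much further apart than that SE. The blocked SE and p-value thus do not measure how far the rounds differ. Without injured round 2 the log2 fold change was 3.34, with an edgeR adjusted p of 0.24. The 11.5 CPM of injured round 1 lay below the 32.5 CPM of droplets without a cell in that library, a level of free RNA described further on.

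Cthrc1 encodes a secreted protein with a collagen triple helix repeat that is made by fibroblasts in injured arteries, heart and tendon (chromosome 15, 39076932 to 39087121, plus strand). It had no UMI in the control and 44 in the injured library of round 1, and 6 and 2455 in round 2, or 0, 7.21, 3.31 and 246 CPM. With the control at 0, set at a floor of 3 counts, the level of round 1 was 2.29-fold higher in the injured library. The exact lower limit of that ratio was 1.79. In round 2 the ratio was 74.1 (34.0 to 202). The log2 fold change was 6.03 ± 1.84 (SE, n = 2 per group) with an edgeR adjusted p of 0.54, and 6.35 ± 0.48 with an edgeR adjusted p of 4.1e-06 with the round as a block. Without injured round 2 the log2 fold change was 1.89, so the size of the blocked change rests mostly on that library, and its SE does not cover this.

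Postn, for periostin, a fibroblast and periosteal protein that aids collagen cross-linking (chromosome 3, 54361109 to 54391037, plus strand), had 13 and 35 UMIs in round 1 and 3 and 3019 in round 2, control first. That comes to 13.6, 5.74, 1.66 and 302 CPM, so the rounds went opposite ways, with ratios of 0.421 (0.217 to 0.867) and 182 (62.3 to 884). Neither edgeR fit called it (log2 fold change 4.60 ± 1.81 SE, adjusted p 0.64, and 0.10 with the round as a block), and without injured round 2 the log2 fold change was -0.22. Tnn encodes tenascin W (tenascin N), a relative found around developing bone (chromosome 1, 160085029 to 160153580, minus strand). Its UMIs numbered 1, 1, 0 and 601 in the same order of libraries. Only injured round 2 lay above the floor, at 60.1 CPM. It was 36.3-fold higher than its control set at that floor, with an exact lower limit of 29.4. The filter on low counts left Tnn out of the main fit.

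The 3 thrombospondins differed in their pattern over libraries. Thbs1, a trimeric form that activates latent TGF-beta and binds CD36 and CD47 (chromosome 2, 118111876 to 118127133, plus strand), held 871 and 382 CPM in round 1 and 639 and 255 CPM in round 2, control first. Both injured libraries lay below both controls, with ratios of 0.438 (0.405 to 0.475) and 0.400 (0.373 to 0.429). Its log2 fold change was -1.19 ± 0.39 (SE, n = 2 per group) with an edgeR adjusted p of 0.59, and -1.19 ± 0.28 with an edgeR adjusted p of 0.025 with the round as a block. Without the shared barcodes the blocked edgeR adjusted p was 0.063.

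Thbs2, the other trimeric form, which limits vessel growth and shapes collagen fibrils (chromosome 17, 14665500 to 14694235, minus strand), held 268, 116, 242 and 306 CPM, again in the order control and injured of round 1, then of round 2. It was lower after injury in round 1, at a ratio of 0.433 (0.374 to 0.501), and higher in round 2, at 1.26 (1.14 to 1.40), and the groups overlapped. Thbs4, a pentameric thrombospondin of tendon and muscle attachments (chromosome 13, 92751590 to 92794818, minus strand), held 47.2, 44.9, 65.7 and 282 CPM. Only injured round 2 stood apart, 4.29-fold (3.57 to 5.20) above its control, whereas the round 1 ratio was 0.952 (0.693 to 1.34). Neither edgeR fit called Thbs2 or Thbs4 (adjusted p 0.97 and 0.73, and 0.63 and 0.12 with the round as a block). The log2 fold change of Thbs4 was 1.62 ± 0.81, and it was -0.29 without injured round 2.

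Spp1 encodes osteopontin, an integrin and CD44 ligand of bone, cartilage and activated macrophages (chromosome 5, 104435118 to 104441050, plus strand). Matrix cells held 16445 and 11581 CPM in round 1 and 12153 and 9820 in round 2, control first. The injured libraries lay below the controls, but injured round 1 was close to control round 2. The log2 fold change of -0.36 ± 0.37 (SE, n = 2 per group) did not pass the test (edgeR adjusted p 0.89, and 0.73 with the round as a block). Markers of hypertrophic cartilage and bone, another source of osteopontin, were detected for 9 of 9 listed genes, and their summed level in matrix cells was 820 and 66.8 CPM in the controls and 56.6 and 24.4 CPM in the injured libraries. Their part in the Spp1 values was not tested. The round 1 control without the shared barcodes held Spp1 at 16968, Thbs1 at 933, Thbs2 at 281, Thbs4 at 49.0, Postn at 14.8 and Tnc at 1.14 CPM in matrix cells, and Cthrc1 stayed at 0.

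**Figure D2:**
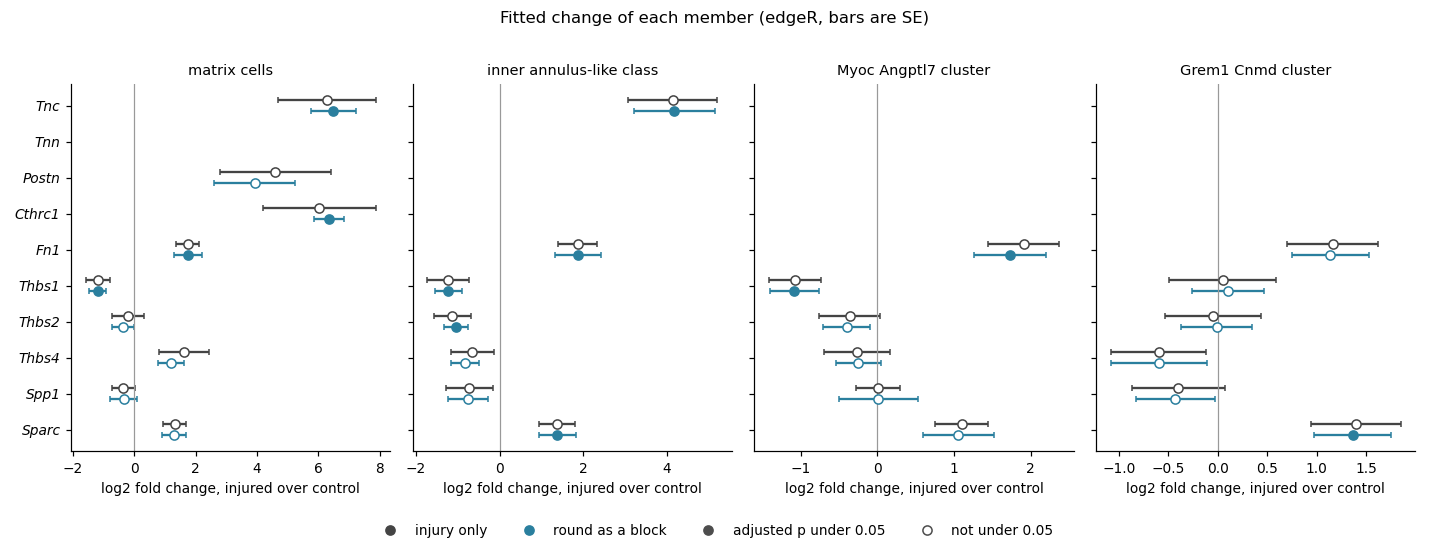
Fitted log2 fold change, injured over control, of each tested gene in 4 groups of cells (bars are the SE from edgeR, and the horizontal scale differs between panels); filled points passed an adjusted p under 0.05. No point of the fit with injury alone is filled, and with the round as a block Fn1 is filled in 3 panels, Thbs1 in 3, Tnc in 2, Sparc in 2, and Cthrc1 and Thbs2 in 1 each.

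The share of matrix cells with a UMI was compared after each cell was thinned to 1000 UMIs, which kept 169, 514, 328 and 1432 cells. Fn1 was seen in 72.8% and 66.2% of control cells and in 94.7% and 93.2% of injured cells, against 86.9%, 77.5%, 95.8% and 96.0% unthinned. The Sparc share was 59.2% and 66.5% in the controls and 88.1% and 93.9% in the injured libraries. Thbs1 was seen in 42.0% and 30.8% of control cells and in 20.6% and 16.2% of injured cells. Spp1 was seen in 84.0% and 82.6% of control cells and in 78.2% and 61.9% of injured cells. In control round 1 the shares without the shared barcodes were 70.3% for Fn1, 56.1% for Sparc, 44.5% for Thbs1 and 83.9% for Spp1. The share with Tnc averaged 0.15% ± 0.22 in the controls and 5.00% ± 5.97 in the injured libraries (SD, n = 2 libraries), and that with Cthrc1 averaged 0.15% ± 0.22 and 6.32% ± 7.84, with 4 cells for each gene in injured round 1. The groups did not overlap for these 6 of the 9 tested genes, and thinned shares did not overlap for 36.9% of all genes tested (19.9% above and 16.9% below). Each exact two-sided permutation test over libraries gave p = 0.33, the smallest value that 2 against 2 allows.

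Cell groups were named from marker genes, given here over all libraries together. The outer annulus-like class held 17 of 17 fibroblast markers, with Col1a1 at 17127, Col3a1 at 10304 and Aspn at 958 CPM. The inner annulus-like class held 15 of 16 cartilage markers, with Col2a1 at 6361 and Acan at 2642 CPM, and Matn1 was at 0. One cluster led by Myoc and Angptl7 carried 8 outer and 7 inner markers, was left without a class name and is called the Myoc Angptl7 cluster. The outer annulus-like class made up 2.91% and 4.76% of the cells of round 1 (control and injured) and 1.52% and 23.6% of those of round 2, which is 11, 37, 13 and 433 cells. These shares leave out a shallow cluster led by Ccl11 and Dpep1, of 17, 28, 268 and 7 cells in the same order. Its best match was also to fibroblast markers, with 5 of them (Col3a1, Dcn, Lum, Clec3b and Dpt). It was left unnamed because its control round 1 barcodes were shared. Of the 433, 73 lay in a dividing cluster led by Cenpf and Top2a. With fewer than 20 control cells in each round, no fit was made for that class. Its makeup differed between libraries: the summed fibroblast markers were 25502, 32998, 38017 and 45327 CPM (control and injured of round 1, then of round 2), and the summed cartilage markers 2553, 8819, 16426 and 2050 CPM. Neutrophil markers, 5 of 8 detected, summed to 623 and 662 CPM in round 1 and 0 and 10.1 CPM in round 2, and hypertrophic or bone markers to 646 CPM in injured round 1 against 32.1 CPM or less in the others. The part of these in the values of the class below was not tested.

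In injured round 2 that class held most UMIs of 5 genes. Its share of the library's UMIs in cells was 93.1% for Tnc, 99.3% for Tnn, 96.8% for Postn, 98.0% for Cthrc1 and 84.7% for Thbs4. Thbs2 lay there at 46.6%, Sparc at 19.1% and Fn1 at 5.8%. In injured round 1, with 37 such cells, Cthrc1 was again mostly there, with 88.6% of 44 UMIs, but 56.4% of the 78 Tnc UMIs lay in the inner annulus-like class and 54.9% of the 82 Postn UMIs in mural-like cells, the pericytes and smooth muscle cells of vessels.

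**Figure D3:**
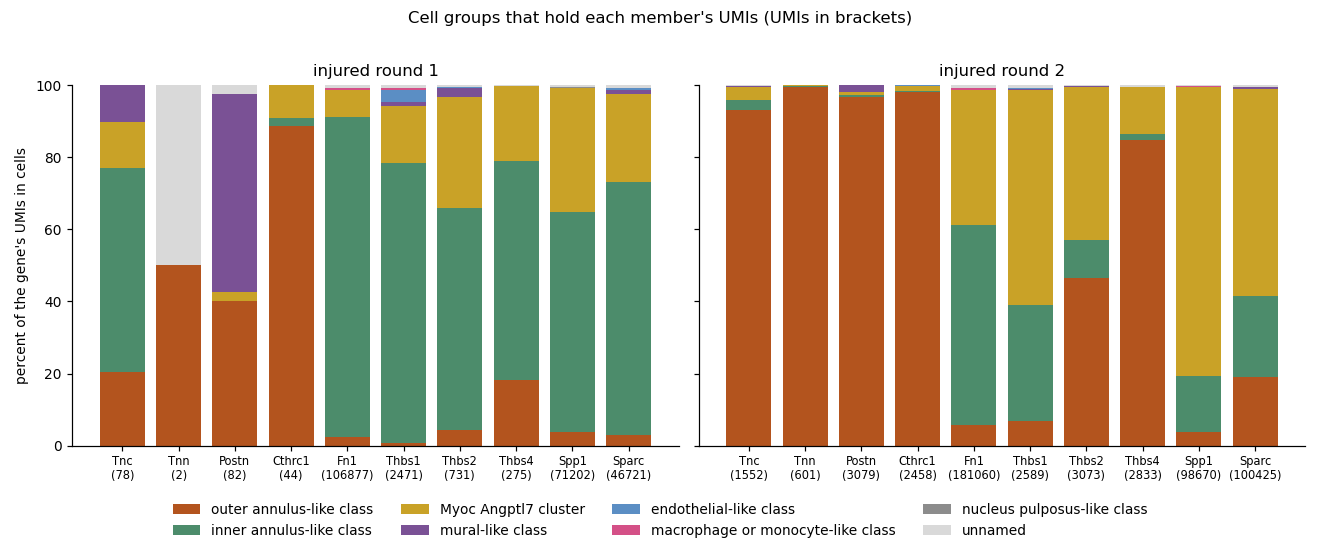
Percent of each gene's UMIs that lay in each group of cells in the 2 injured libraries, with the number of UMIs in brackets. In injured round 2 the outer annulus-like class takes 84.7% or more of Tnc, Tnn, Postn, Cthrc1 and Thbs4, and in injured round 1 Cthrc1 alone is held mostly by it among genes with over 2 UMIs.

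The level in CPM also separated the classes. Tnc in the outer class was 62.3 CPM in injured round 1 and 503 CPM in injured round 2, against 8.71 and 10.1 CPM in the inner class of the same libraries, ratios of 7.15 (3.77 to 12.9) and 49.9 (37.0 to 69.0). Cthrc1 stood at 152 and 838 CPM in the outer class and at 0.198 and 2.06 CPM in the inner one. Postn was 128 and 1037 CPM in the outer class, with no UMI and 3.43 CPM in the inner class. Measured against a floor of 3 counts, Postn was 216-fold higher in the outer class in round 1, with an exact lower limit of 166. In round 2 it was 302-fold (183 to 540) higher. Thbs4 was 5.89-fold (4.21 to 8.12) and 73.0-fold (55.2 to 98.6) higher in the outer class. Each of these 4 genes was thus higher in outer than in inner cells of both injured libraries. In injured round 1 the outer levels rest on few of the 37 cells: Tnc, Postn and Thbs4 were seen in 6 cells each and Cthrc1 in 8, and the 4 cells with the most UMIs of a gene held 87.5% of its UMIs for Tnc, 90.9% for Postn, 87.2% for Cthrc1 and 96.0% for Thbs4.

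The 11 and 13 control cells of the outer class gave few UMIs. They held 13 and 2 UMIs of Postn, or 386 (205 to 660) and 64.2 (7.77 to 232) CPM, no Tnc or Tnn, and 0 and 1 UMI of Cthrc1. Without the shared barcodes, 6 control cells of round 1 remained, with Postn at 436 CPM and still no Tnc, Tnn or Cthrc1. Set at 3 counts, a Tnc count of 0 stands for 89.1 and 96.2 CPM in these control cells. The 62.3 CPM of injured round 1 was thus not distinguishable from the controls. The 503 CPM of injured round 2 was 5.22-fold higher than its control set at 3 counts, with an exact lower limit of 4.24.

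Fn1, Thbs1, Spp1 and Sparc were spread differently. Fn1 was lower in the outer than in the inner class, at ratios of 0.504 (0.484 to 0.524) and 0.159 (0.156 to 0.163) in the injured libraries. In injured round 1, 5 dividing cells of the outer class held 2015 UMIs of Fn1 and 2477 of Spp1, so the levels of the class there, 9481 and 10197 CPM, rest mostly on them. Spp1 was highest in the Myoc Angptl7 cluster of every library, at 32938, 31416, 29313 and 28716 CPM (control and injured of round 1, then of round 2), which was 2.35-fold, 3.65-fold, 4.05-fold and 8.10-fold above the inner class. The 364 cells of that cluster in injured round 2 took 80.1% of the library's Spp1 UMIs in cells. Sparc was also higher there than in the inner class in every library, by 3.33-fold, 2.25-fold, 4.01-fold and 4.05-fold. Thbs2 was 1.77-fold, 3.22-fold, 4.59-fold and 6.39-fold higher there in the same order. The counting limits of these ratios all lay above 1.

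**Figure D4:**
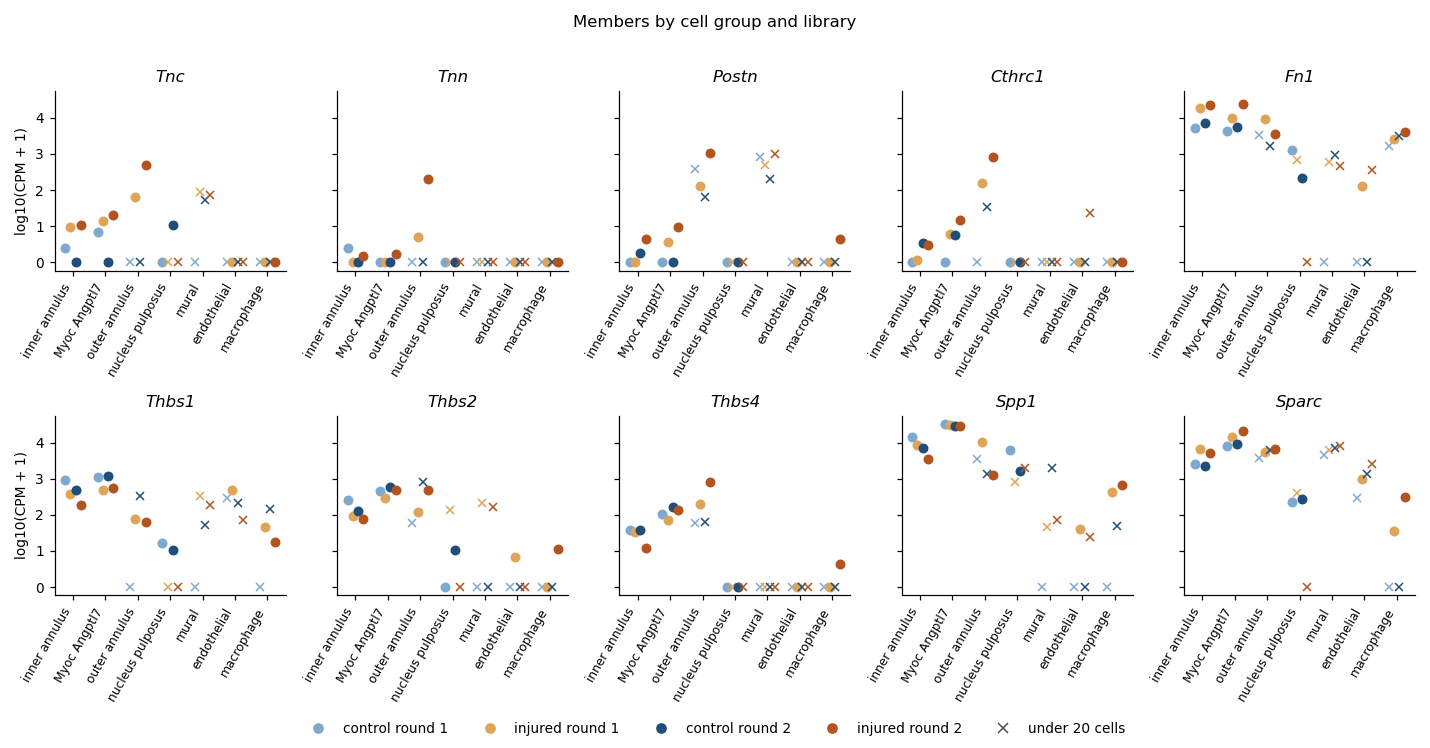
Level of each gene as log10(CPM + 1) in 7 groups of cells and 4 libraries; crosses are sums of fewer than 20 cells. Tnc, Tnn and Cthrc1 are near 0 in endothelial-like and macrophage-like cells in each library with at least 20 such cells, Spp1 is highest in the Myoc Angptl7 cluster, and Postn is high in mural-like as well as outer annulus-like cells.

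Injured and control discs were next compared within classes. The inner annulus-like class had 197, 425, 244 and 743 cells, but their clusters differed: control cells lay most often in a cluster led by Cnmd and Grem1 (95 of 197 and 212 of 244 cells), and most injured cells in clusters led by Gdf5, Hapln1 and Acan, by Cxcl2, Nos2 and Mmp3, and by Saa1, Saa2 and Lcn2. Of its 197 control cells of round 1, 89 carried shared barcodes, and without them that library held Fn1 at 3802, Sparc at 1955, Thbs1 at 1007, Thbs2 at 274 and Thbs4 at 40.0 CPM in the inner class. Fn1 stood at 5205 and 7201 CPM in the controls and 18820 and 22997 CPM in the injured libraries, Sparc at 2492 and 2310 against 6482 and 5167 CPM, and Thbs1 at 926 and 500 against 380 and 190 CPM. Thbs2 was 258 and 127 against 89.3 and 73.9 CPM, and Thbs4 was 37.6 and 37.1 against 33.0 and 11.4 CPM. Thbs2 was thus lower in both injured libraries. For Thbs4 the round 1 ratio of injured to control, 0.878 (0.579 to 1.38), lay within counting error, as did the 0.952 (0.693 to 1.34) of matrix cells, and the round 2 ratio was 0.308 (0.202 to 0.470) in the inner class and 4.29 (3.57 to 5.20) in matrix cells. Without a test, 6 of the 7 genes tested did not overlap between groups (Tnc, Fn1 and Sparc above, Thbs1, Thbs2 and Thbs4 below), as did 37.9% of all genes tested (14.6% above and 23.2% below).

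The main edgeR fit called none of 7 tested genes in the inner class, nor any other gene (0%), while 5 of the 7 had an unadjusted p under 0.05, against 8.22% of all genes, and DESeq2 called 1, Fn1, against 0.991% of genes with an adjusted p. With the round as a block, when 8.36% of genes were called (4.1% higher and 4.26% lower), edgeR called 5 of the 7. Fn1 rose by 1.87 ± 0.54 on the log2 scale (adjusted p 0.011), Sparc by 1.38 ± 0.44 (0.027) and Tnc by 4.18 ± 0.98 (0.00080). Thbs1 fell by 1.23 ± 0.32 (adjusted p 0.0038) and Thbs2 fell by 1.05 ± 0.29 (0.0058). In the same class, the summed fibroblast markers were 6363 and 3474 CPM in the controls and 16195 and 9115 CPM in the injured libraries, 17 of 17 detected. Hypertrophic or bone markers, 7 of 9 detected, summed to 1113 and 69.4 against 30.1 and 34.1 CPM. Their part in these calls was not tested. The Tnc call rests on 1 UMI in the controls and 44 in each injured library. Tnc passed the filter on low counts only through the injured libraries, so its call is no separate support for a rise. The 8.71 and 10.1 CPM of Tnc in the injured libraries lay below the 32.5 and 38.0 CPM of their droplets without a cell. With cells thinned to 1000 UMIs, 2 and 5 injured cells of the inner class held Tnc and no control cell did. Leaving out the shared barcodes kept these 5 calls in the blocked fit.

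Single clusters gave another view. In the Gdf5 Hapln1 Acan cluster, Fn1 was 12237 and 15589 CPM in the controls and 11590 and 16213 CPM in the injured libraries, so the groups overlapped, and Sparc was 4421 and 3669 against 3292 and 4043 CPM. Thbs1 in that cluster was 462 and 425 CPM in the controls and 150 and 90.5 CPM in the injured libraries. The controls there were 60 cells, 54 of them on shared barcodes, and 19 cells, so no test was made. In the Grem1 Cnmd cluster, of 95, 33, 212 and 79 cells and no shared barcode, Fn1 was 3769 and 2571 against 8994 and 5002 CPM, Sparc was 2033 and 1859 against 4132 and 5801 CPM, and Thbs1 was 1061 and 511 against 1000 and 599 CPM. Fn1 and Sparc did not overlap between groups there, nor did Thbs4, which made 3 of the 6 genes tested, when 23.2% of all genes tested did not overlap (9.3% above and 13.9% below), whereas Thbs1 overlapped. Thbs4 rested on 25 and 45 UMIs in the controls and 8 in each injured library, and its ratios of injured to control, 0.682 (0.266 to 1.56) and 0.612 (0.249 to 1.31), lay within counting error in both rounds. The edgeR fit called no gene (0%). At an unadjusted p under 0.05 it had 2 of the 6 tested here, Fn1 and Sparc, against 1.85% of all genes, and DESeq2 called none of the 6, against 0.0185% of all genes. With the round as a block, when 1.07% of genes were called (0.834% higher and 0.241% lower), edgeR called Sparc alone of the 6 (log2 fold change 1.37 ± 0.39, adjusted p 0.045). In this cluster the fibroblast markers summed to 5624 and 2925 CPM in the controls and 9821 and 6511 CPM in the injured libraries. Cartilage markers summed to 16388 and 11236 against 25004 and 20801 CPM, and hypertrophic or bone markers to 1336 and 81.3 against 56.4 and 56.0 CPM. Their part in this call was not tested.

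In the Myoc Angptl7 cluster, of 38, 75, 60 and 364 cells, Fn1 was 4460 and 5504 CPM in the controls and 10109 and 24550 CPM in the injured libraries. Sparc was 8290 and 9271 against 14572 and 20950 CPM, and Thbs1 was 1141 and 1201 against 499 and 561 CPM. These 3 did not overlap between groups and were 3 of the 6 genes tested there, against 42.9% of all genes tested (19.3% above and 23.6% below). Tnc, Postn and Cthrc1 were too low in the cluster to be tested. Their controls held 1 and 0, 0 and 0, and 0 and 2 UMIs, and injured round 1 held 10, 2 and 4 UMIs, or 12.8, 2.56 and 5.11 CPM, each below the 18.0 CPM that 3 counts are worth in the control of that round. The round 1 levels of these 3 genes were thus not distinguishable from their control, and they were also below the level of empty droplets in both injured libraries. Spp1 had a log2 fold change of 0.01 ± 0.29. The main edgeR fit called none of the 6 tested genes, when 0.21% of genes were called (0.0807% higher and 0.129% lower), with 3 at an unadjusted p under 0.05, against 12.2% of all genes, and 1, Fn1, called by DESeq2, against 2.66% of genes with an adjusted p. Without the shared barcodes, the round 1 control of the cluster held Fn1 at 4293, Sparc at 7515, Thbs1 at 1178 and Spp1 at 33087 CPM. The blocked edgeR fit, calling 7.3% of genes (4.15% higher and 3.15% lower), called Fn1 (1.73 ± 0.47, adjusted p 0.015) and Thbs1 (-1.08 ± 0.31, adjusted p 0.025). In the same cluster 13 immediate early genes, which respond to handling, summed to 12834 and 11285 CPM in the controls and 6525 and 7636 CPM in the injured libraries. Their part in these calls was not tested.

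The change with injury was compared directly between the Myoc Angptl7 cluster and the inner class. None of 7 tested genes was called by edgeR, when 0.205% of genes were (0.137% with the higher change in the cluster and 0.0683% with the lower), and DESeq2 called none of them either, against 0.0569% of all genes. Spp1 alone of the 7 had an unadjusted p under 0.05, as did 5.31% of all genes: its log2 fold change was 0.85 ± 0.31 higher in the cluster than in the inner class (edgeR adjusted p 0.61), where Spp1 was 14040 and 7230 CPM in the controls and 8596 and 3543 CPM in the injured libraries. For Fn1 the difference was -0.06 ± 0.29 and for Thbs1 0.22 ± 0.36.

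Macrophage-like cells carried all 15 listed markers, with Lyz2 at 4728 and Pf4 at 3475 CPM, and numbered 1, 37, 3 and 90. They held Fn1 at 2665 and 4113 CPM in the injured libraries and Spp1 at 415 (326 to 521) and 675 (585 to 775) CPM. Sparc stood at 33.7 and 311 CPM and Thbs1 at 44.9 and 16.7 CPM. No UMI of Tnc, Tnn or Cthrc1 was seen in the 131 cells, and Postn and Thbs4 gave 1 UMI each. Spp1 in these macrophages was below its level in the inner class of the same libraries, 8596 and 3543 CPM, and below the 1674 and 1558 CPM of droplets without a cell. Sparc and Thbs1 in macrophages also lay below that free RNA level, at 3857 and 1677 CPM for Sparc and 143 and 71.9 CPM for Thbs1, whereas Fn1 lay above its 2154 and 2532 CPM. After thinning, Fn1 was seen in 71.0% of 31 and 79.2% of 77 macrophages, and Spp1 in 25.8% and 20.8%. With 1 and 3 control macrophages, no comparison with controls was made.

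Vessel cells also carried some of the 10. Mural-like cells, 13 and 17 in the injured libraries, held Postn at 508 and 1029 CPM, Sparc at 6420 and 8036 CPM and Tnc at 90.3 and 72.2 CPM, the last from 8 and 4 UMIs. Endothelial-like cells, 37 and 16, held Sparc at 964 and 2473 CPM and Thbs1 at 479 and 68.7 CPM, with no UMI of Tnc, Tnn or Postn in any library. Nucleus pulposus-like cells, 29 and 66 in the controls and 5 and 1 in the injured libraries, held Spp1 at 6083 and 1646 CPM in the controls, and their mitochondrial share was 19.8% and 49.8%.

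Within the outer class of injured round 2, where 5 of the genes were concentrated, cells differed widely, also in depth. Of its 433 cells, 113 lay in a shallow cluster with a median of 725 UMIs, against 6622 and 10234 in the other two, and in injured round 1 that shallow cluster held 20 of 37 cells. Tnc was seen in 60.5% of the 433 cells, Tnn in 34.9%, Postn in 55.7%, Cthrc1 in 66.1% and Thbs4 in 53.6%, at a median depth of 4884 UMIs. In macrophages of the same library, 90 cells at a median of 3290 UMIs, the shares were 0% for Tnc, Tnn and Cthrc1 and 1.11% for Postn and Thbs4. Without matching for depth, the 44 cells with the most UMIs of a gene held 46.9% of Tnc, 66.2% of Tnn, 56.1% of Postn, 49.2% of Cthrc1 and 64.2% of Thbs4. Thinned to 1000 UMIs, which kept 351 of the 433 cells, 34.8% held Tnc, 14.8% Tnn, 39.3% Postn, 45.6% Cthrc1 and 39.3% Thbs4.

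Detection overlapped only in part. Of the 351 thinned cells, 70 held none of the 5 genes, 91 held 1, 94 held 2, 58 held 3, 33 held 4 and 5 cells held all. Among the 122 cells with Tnc, 56.6% also held Cthrc1 against 39.7% of the other 229 cells, and 51.6% also held Postn against 32.8%. Among the 52 cells with Tnn, 65.4% held Postn against 34.8% of the 299 without it. Postn and Thbs4 were the pair closest to even, with Thbs4 in 41.3% of cells with Postn and 38.0% of those without. These shares are of cells of 1 library, which are not replicates, and carry no test.

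Droplets holding 1 to 100 UMIs, taken as the level of free RNA, could be read in the 3 libraries other than control round 1. For injured round 2, Tnc was 38.0 CPM in empty droplets and 147 in cells, Cthrc1 65.1 and 233, Postn 87.7 and 292, and Tnn 14.1 and 56.9. The order was the other way for injured round 1: Tnc was 32.5 CPM in empty droplets and 11.6 in cells, Postn 54.5 and 12.2, Cthrc1 9.74 and 6.54 and Tnn 13.6 and 0.297. The control of round 2 had Tnc at 5.91 and 1.39 CPM, Cthrc1 at 5.47 and 3.24 and Postn at 21.7 and 8.79. Empty droplets of both injured libraries thus held all 4 genes, whereas cells exceeded them in round 2 alone. Fn1 was 7.38-fold higher in cells than in empty droplets in injured round 1, and Thbs1, Thbs2, Thbs4, Spp1 and Sparc were higher in cells in each of the 3 libraries.

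**Figure D5:**
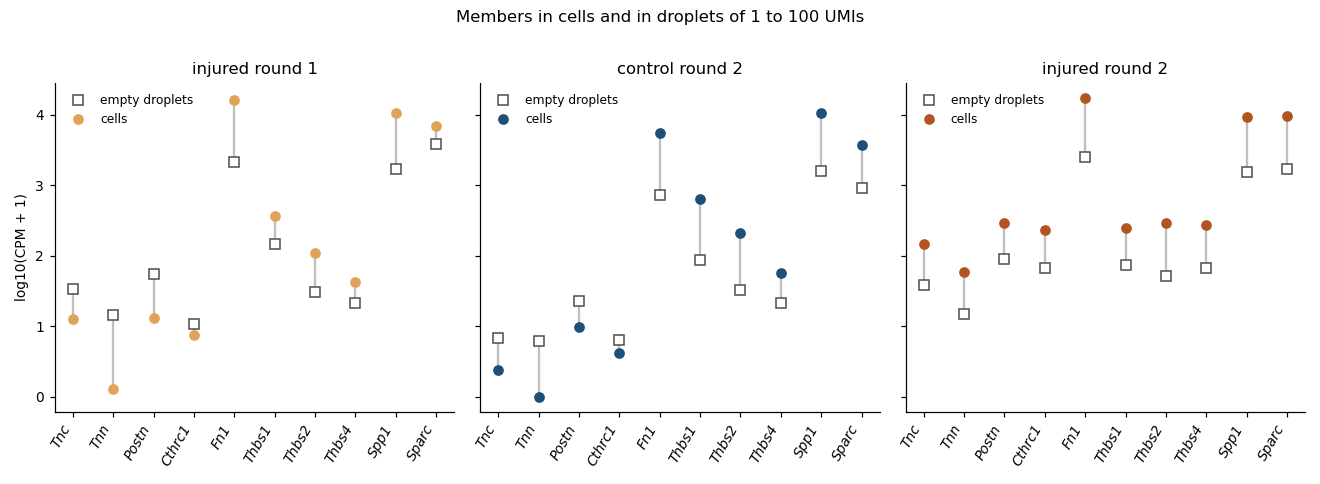
Level of each gene as log10(CPM + 1) in cells (filled) and in droplets of 1 to 100 UMIs (open) in the 3 libraries whose tables list such droplets. For Tnc, Tnn, Postn and Cthrc1 the open symbol lies below the filled one for injured round 2 and above it for the other libraries.

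Across 32 sums of a cluster in a library, each of at least 20 cells, the genes fell into groups by Pearson's r of log2(CPM + 10). Tnc, Tnn, Postn and Cthrc1 correlated with each other at 0.83 to 0.97, and Thbs4 with them at 0.59 to 0.79. Thbs4 and Thbs2 correlated at 0.83 and Thbs2 and Sparc at 0.72, while Thbs1 and Tnn stood at -0.23. The sums share libraries and depth, and the values are a description. Among 2920 other genes with a mean of at least 50 CPM, the 2 most like each gene were taken. Col12a1 and Fstl1 were nearest to Tnc (0.76 and 0.74), Aspn and Fstl1 to Tnn (0.77 and 0.70) and to Cthrc1 (0.79 and 0.76), and Loxl1 and Col5a3 to Postn (0.91 and 0.86). Col2a1 and Col11a1 were nearest to Fn1 (0.92 and 0.88), Has1 and Pura to Thbs1 (0.84 each), Col16a1 and Lox to Thbs2 (0.88 and 0.87), and Col12a1 and Fndc1 to Thbs4 (0.89 and 0.83). Clu and Tspan3 were nearest to Spp1 (0.83 and 0.81), and Bgn and Dcn, which encode small leucine-rich proteoglycans, to Sparc (0.95 and 0.92).

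Receptors, relatives and TGF-beta inputs of these proteins were read from lists of named genes. In matrix cells the main edgeR fit called none of 18 tested receptor genes of 25 (median log2 fold change 0.07), none of 14 tested relatives of 20 (-0.76) and none of 21 TGF-beta pathway genes (0.02), beside a median of -0.02 over all genes. The receptors with the highest level were Sdc4, a syndecan, at 2525, 2260, 1782 and 1648 CPM, Itgb1, the beta 1 integrin chain, at 344, 392, 368 and 477 CPM, and Cd44 at 586, 549, 118 and 328 CPM. Cd44 was higher in both libraries of round 1 than in both of round 2. With the round as a block, when 5.54% of all genes were called, edgeR called 1 of the 18 receptors: Itga10, a collagen-binding integrin chain, was at 40.9 and 47.0 CPM in the controls and 12.8 and 17.8 CPM in the injured libraries (log2 fold change -1.45 ± 0.28, adjusted p 0.0078). Over all libraries Cd44 was 1229 CPM in macrophages, 561 in outer and 423 in inner annulus-like cells, and Cd36, a thrombospondin receptor, was 677 CPM in macrophages with 2 UMIs in inner and none in outer annulus-like cells.

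The relatives with the highest level were Comp, the pentameric thrombospondin of cartilage, at 2686, 1084, 1789 and 1603 CPM, Ecm1 at 212, 451, 156 and 772 CPM and Tgfbi, a periostin relative, at 205, 286, 317 and 652 CPM. With the round as a block, edgeR called 7 of the 14 tested relatives in matrix cells, against 5.54% of all genes: Tnr (tenascin R), Tnxb (tenascin X), Sparcl1, Ibsp and Fbln1 lower, and Fstl1 and Ecm1 higher. Tnr, a tenascin best known from the nervous system, was at 23.1 and 58.0 CPM in the controls and at 0.820 and 1.60 CPM in the injured libraries (log2 fold change -4.95 ± 0.39, blocked edgeR adjusted p 5.4e-06), so that this tenascin and Tnc lay on opposite sides of the controls. Among TGF-beta genes, the highest levels were those of Ccn2, a TGF-beta target, at 1409, 1446, 551 and 1081 CPM, Skil at 377, 252, 457 and 249 CPM and Smad7 at 283, 253, 289 and 287 CPM. The blocked fit called 2 of these 21 genes, against 5.54% of all genes: Tgfbr3 was lower and Ltbp2 higher. Ltbp2, named for the latent TGF-beta binding protein family, was at 24.1 and 32.6 CPM in the controls and 148 and 194 CPM in the injured libraries.

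Outside the matrix cell sum, the main edgeR fit did call genes of these lists. In the Myoc Angptl7 cluster, when 0.21% of genes were called, it called 1 of 12 tested relatives and 1 of 18 TGF-beta genes. Fbln1, for fibulin 1, was at 462 and 372 CPM in the controls and 81.8 and 79.6 CPM in the injured libraries (log2 fold change -2.30 ± 0.35, edgeR adjusted p 0.035). Ltbp2 was at 66.0 and 43.4 against 396 and 268 CPM (2.71 ± 0.41, edgeR adjusted p 0.035). The change with injury differed between that cluster and the inner class for 1 of 14 relatives, Comp, and 1 of 20 TGF-beta genes, Ltbp1, when 0.205% of genes were called. Comp was at 2253 and 1204 CPM in the controls and 699.6 and 380.5 CPM in the injured libraries of the inner class, and at 5733 and 3730 against 3443 and 4541 CPM in the cluster. Ltbp1 was at 23.2 and 33.1 against 30.5 and 22.2 CPM in the inner class, and at 30.0 and 11.4 against 98.4 and 81.7 CPM in the cluster.

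Markers of other states moved with the libraries and are given for comparison. In matrix cells the summed fibroblast markers were 12413 and 13177 CPM in the controls and 20326 and 29396 CPM in the injured libraries, and 12 proliferation genes summed to 57.7 and 30.4 against 111 and 247 CPM. Macrophage markers, 14 of 15 detected with Adgre1 at 0, summed to 56.6, 68.4, 29.3 and 53.5 CPM, of which Cd14 made up the most. The 13 immediate early genes, which respond to handling, summed to 7403 and 12361 CPM in the controls and 5932 and 6410 CPM in the injured libraries. The part of these differences in the values of the 10 genes was not tested, apart from the outer class. Without that class, the log2 fold changes in matrix cells were 2.01 for Fn1, 1.50 for Sparc, -0.99 for Thbs1, 3.43 for Tnc, 1.28 for Cthrc1 and -0.09 for Thbs4.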

How the data were processed

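The deposited values are UMI counts per gene and barcode, whole numbers that the authors made with Cell Ranger on mm10 (version 6.0.0 for the round 1 control and 4 for the others), per the file headers and the submitters' processing notes, and did not normalize. The 10 genes, the lists and the rules were chosen with earlier results of these data known. Barcodes with at least 250 genes and genes in at least 5 cells were kept. Cells were clustered with scanpy 1.11.5 without the 10 genes (2000 variable genes, 30 components, 20 neighbours, Leiden resolution 1) and named where at least 3 listed markers were detected in 25% of cells at 1.2 times the mean. UMIs were summed per library and tested with edgeR 4.0.16 (R 4.3.3, filterByExpr, TMM, quasi-likelihood, Benjamini-Hochberg over all genes, threshold 0.05). The method was also run on simulated counts. These had no difference between rounds and changes only in well-counted genes, so they do not speak for genes near 0 in the controls. Same-round libraries come from the same animals per the labels, and their deviations from the group means correlated at 0.69 over 2913 genes in all cells and 0.64 over 2889 genes in matrix cells. DESeq2 1.42.0, other filters, left-out libraries, shared barcodes and likely doublets (1, 5, 6 and 27 cells per library, otherwise kept) were alternatives. Named list genes were those called by the main fit, or else the 3 with the highest mean. List genes called by the blocked fit of matrix cells were named as well, and Cd36 was named outside these rules. The 2 genes most like each member were taken by Pearson's r. Comparisons of the Myoc Angptl7 and Grem1 Cnmd clusters were added after seeing the clusters, and the interaction used the former in place of the outer class, which had too few control cells. Barcode sequences of round 2 are not analysed here. The SE of an edgeR log2 fold change is its size over the root of the F statistic.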

Additional observations from a re-analysis of the deposited data

How the results depend on the processing

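Counts of genes called in all cells (10 in the main fit) were 180 with DESeq2, 34 with no filter on low counts, 803 with the round as a block, 2 without shared barcodes, 413 with both, 0 with 500 genes per cell, 19 under 10% mitochondrial UMIs, 29 with the UMI minimum of control round 1 and 32 without likely doublets. In matrix cells (2) they were 123, 33, 621 and 250 for DESeq2, no filter, the block and the block without shared barcodes, 0 with 500 genes or under 10% mitochondrial UMIs and 13 without the outer class. In the inner class (0) they were 98, 203, 860 and 752 for the same first 4, 3 without shared barcodes and 13 under 10% mitochondrial UMIs. In the Myoc Angptl7 cluster (13) they were 69, 196, 452 and 487 for the first 4 and 21 without doublets, in the Grem1 Cnmd cluster (0) 1, 15, 58 and 58, and for the interaction (18) 5 with DESeq2 and 36 with no filter. Leaving out 1 library gave 124 to 271 genes in all cells, 0 to 123 in matrix cells, 63 to 252 in the inner class, 13 to 92 and 0 to 14 in the clusters and 15 to 30 for the interaction.

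Of the 10 genes, none was called by the main fit. In all cells, DESeq2 called 2, the block 5, the block without shared barcodes 3 and leave-one-out fits 1 to 7. In matrix cells these were 1, 4, 2 and 0 to 4, and in the inner class 1, 5, 5 and 0 to 1, with 2 under no filter. In the Myoc Angptl7 cluster they were 1, 2, 2 and 0 to 2, with 2 under no filter, and in the Grem1 Cnmd cluster the block called 1 with or without shared barcodes.

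Directions of the log2 fold changes held in 113 of 117 alternative values in all cells, 148 of 152 in matrix cells, 105 of 105 in the inner class, 86 of 90 and 81 of 90 in the clusters and 42 of 48 for the interaction. Leave-one-out ranges that crossed 0 in all cells were -1.01 to 0.49 for Thbs2, -0.24 to 2.55 for Thbs4 and -0.53 to 0.012 for Spp1. In matrix cells they were -0.22 (without injured 2) to 6.66 for Postn, -1.09 to 0.35 (without injured 1) for Thbs2 and -0.29 (without injured 2) to 2.41 for Thbs4, which was -0.087 without the outer class. In the Myoc Angptl7 cluster they were -0.85 to 0.071 for Thbs2, -0.89 to 0.19 for Thbs4 and -0.064 to 0.19 for Spp1. In the Grem1 Cnmd cluster they were -0.30 to 0.62 for Thbs1, -0.35 to 0.43 for Thbs2 and -0.95 to 0.041 for Spp1. There, Thbs1 was -0.039 at resolution 0.5, and Thbs2 was 0.10 under 10% mitochondrial UMIs and 0.26 with the 10 genes in the clustering. For the interaction they were -1.08 to 0.96 for Tnc, -0.62 to 0.48 for Fn1, -0.42 to 0.85 for Thbs1, -0.75 to 1.75 for Thbs4 and -0.73 to 0.23 for Sparc. The causes were not tested.

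With 2 libraries per group a left-out library leaves 1, which is assumed to vary like the other group. The outer class was not fitted, so its alternatives were not run, and the interaction already holds each library as a term. Control round 1 has the fewest UMIs, so absence there is the least certain.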

Other observations

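Spp1 was also high in an unnamed cluster of 109 shallow cells led by Krt18, Krt17 and Epcam, at 9341 and 9710 CPM in round 1 and 20930 and 19071 CPM in round 2, control first. The cluster had a median of 444 UMIs per cell, and in round 1 its barcodes were shared between the 2 libraries (17 of 17 control and 16 of 17 injured cells). The other unnamed cluster, of 320 shallow cells led by Ccl11 and Dpep1, matched fibroblast markers best. It held Thbs1 at 1280 CPM and Sparc at 4406 CPM in its 268 cells of control round 2. All unnamed cells together held 63.2% of the 19 Postn UMIs in cells of that library. Both clusters entered the sums over all cells and neither entered the matrix cells.

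The dividing cluster led by Cenpf and Top2a held Tnc at 615 CPM, Tnn at 285 CPM, Postn at 1057 CPM, Cthrc1 at 810 CPM and Thbs4 at 1065 CPM in its 73 cells of injured round 2. In the 247 cells of the Aspn Fstl1 cluster of that library, the same genes stood at 472, 185, 1072, 889 and 797 CPM. The 5 dividing cells of injured round 1 instead held Fn1 at 20611 CPM and Spp1 at 25337 CPM, with 1 UMI of Tnc, 1 of Cthrc1 and none of Postn.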
